A study of Mus musculus with 48 samples.

Results

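Absorptive colonocytes are the surface epithelial cells that take up salt, water and short-chain fatty acids in the large bowel. They were followed here through 10 genes chosen by name as markers of these cells, *Car1*, *Car4*, *Slc26a3*, *Aqp8*, *Krt20*, *Slc9a3*, *Guca2a*, *Scnn1a*, *Slc16a1* and *Vil1*. All 10 genes were on the array, with 14 probes between them, of 18434 named genes and 41174 probes in all. *Scnn1a* and *Vil1* had 2 probes each and *Slc16a1* had 3. For each gene the probe with the brightest mean signal in the colon is described, and the other probes are given where they differ.

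RNA of whole colon and liver was measured in C57BL/6 offspring aged 12 weeks, described by the study as males, on 48 two-colour arrays, 24 for each tissue. The first letter of a group's name is the diet of the dam through mating, gestation and lactation, and the second is the diet of the offspring from weaning. Selenium was at 0.44 mg/kg in diet H and at 0.08 mg/kg in diet L, and folate at 2.4 mg/kg in H and at 0.4 mg/kg in L. Both were versions of 1 high-fat diet, so that every mouse and every dam ate a high-fat diet, and selenium and folate always changed together. The groups HH, HL, LH and LL had 6 colon mice each. In the liver they had 5, 6, 6 and 6 mice, since 2 of the 6 HH liver arrays carry the label of the same animal and were averaged. Each colon slide held 1 mouse of each group. The study describes colon and liver as excised from the offspring. No animal label occurs in both tissues, so they could not be paired by animal. A colon mouse and a liver mouse may therefore be the same animal, and the tests between the tissues treat them as separate mice. Values are log2 ratios of the mouse RNA (Cy3) over a common reference RNA (Cy5), so that a value of 0 is the level of the reference, and a level cannot be set against that of another gene. The sources describe the reference RNA differently, as a multi-organ mouse reference in the labels and as a pool of intestinal and liver RNA in the methods.

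The colonocyte brings sodium in through *Slc9a3*, the apical sodium/proton exchanger NHE3, and, in the distal colon, through the epithelial sodium channel whose alpha subunit is *Scnn1a*. Chloride enters in exchange for bicarbonate through *Slc26a3*, and the carbonic anhydrases *Car1*, in the cytosol, and *Car4*, on the apical membrane, interconvert carbon dioxide and bicarbonate. *Aqp8* is a water channel, *Slc16a1* is the monocarboxylate transporter MCT1, which carries butyrate and lactate, and *Guca2a* is the peptide hormone guanylin, which acts on guanylate cyclase C. *Krt20*, an intermediate filament keratin of differentiated surface cells, and *Vil1*, the microvillus actin bundler villin, belong to the structure of the cell. In these whole-tissue samples, fewer cells of a type and less RNA per cell cannot be told apart.

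The 10 genes lie at separate loci of the mouse genome (GRCm38.p6). *Car1* is at chr3:14766214-14808365, *Slc16a1* at chr3:104638664-104658462, *Car4* at chr11:84957754-84966054, *Krt20* at chr11:99428385-99438153 and *Slc26a3* at chr12:31433142-31473922. *Aqp8* is at chr7:123462294-123468003, *Slc9a3* at chr13:74086255-74169442, *Guca2a* at chr4:119637732-119639465, *Scnn1a* at chr6:125314271-125344943 and *Vil1* at chr1:74409384-74435560.

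The promoters of 3 genes are shown, *Krt20*, *Slc26a3* and *Vil1*, because they form the closest pair as measured and the closest pairs once group and slide means were removed, as described further on. Each is the 250 bases before the RefSeq start (GRCm38.p6), printed 5′ to 3′ in the direction of the gene. *Krt20* is on the minus strand at chr11:99438154-99438403, *Slc26a3* on the plus strand at chr12:31437969-31438218, which lies inside the annotated span of the gene, and *Vil1* on the plus strand at chr1:74409134-74409383. Capitals mark 3 short motifs: TATAAA, the TATA box, searched on the strand of the gene; CAAAGG, from the HNF4 site, and AGATAA, from the GATA site, both searched on either strand, so that TTATCT is AGATAA read backwards.
Krt20: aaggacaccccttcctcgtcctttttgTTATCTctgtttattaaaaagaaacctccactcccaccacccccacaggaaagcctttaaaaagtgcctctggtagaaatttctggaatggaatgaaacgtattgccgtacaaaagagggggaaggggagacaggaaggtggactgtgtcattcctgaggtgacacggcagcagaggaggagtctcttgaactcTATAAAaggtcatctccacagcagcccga
Slc26a3: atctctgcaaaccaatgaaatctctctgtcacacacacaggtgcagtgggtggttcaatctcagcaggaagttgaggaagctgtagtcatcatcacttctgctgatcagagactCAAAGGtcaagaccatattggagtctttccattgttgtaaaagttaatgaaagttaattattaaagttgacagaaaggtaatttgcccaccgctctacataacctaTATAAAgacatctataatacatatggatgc
Vil1: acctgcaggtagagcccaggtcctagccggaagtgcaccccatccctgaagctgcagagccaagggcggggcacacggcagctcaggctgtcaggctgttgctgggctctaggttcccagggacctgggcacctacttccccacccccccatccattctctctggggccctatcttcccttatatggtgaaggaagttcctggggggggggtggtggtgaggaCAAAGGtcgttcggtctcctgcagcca

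RefSeq promoters were at hand for 8 of the 10 genes. TATAAA was found in *Krt20*, starting 29 bases before the start, and in *Slc26a3*, starting 30 bases before it, but in none of the other 6, and 7.59% of 32851 promoters of the same length held it. CAAAGG was found in *Slc26a3* and *Vil1*, 136 and 27 bases before the start, and in 17.6% of all promoters. AGATAA was found in *Krt20* and *Guca2a* and in 9.99% of all promoters, and CATAAA, the core of the CDX site, in 0 of the 8 and in 10.8% of all. The motif searches overlap in no base in the sequences shown, and a match is a description of letters only.

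Some arrays stood apart from the rest. On the colon arrays of HH mice 1 and 4, local background values brighter than a few spots (5 and 4 spots) narrowed the spread of all log2 ratios after background correction, to SDs of 0.53 and 0.69 against a median of 0.80 over the colon arrays. Replacing those background values by the array's median background (the repaired background) brought the SDs to 0.81 and 0.80. LL mouse 4 had 356 probes more than 2-fold above every other colon mouse, and 381 with the repaired background. HH mouse 1 had 420, but 0 with the repaired background, and HH mouse 4 had 3 in both settings. In LL mouse 4 the mean log2 ratio over 9 immune genes was 1.72, against at most 0.31 in the other mice. The transcript of *Xist*, made from the inactive X chromosome of females, was high and the Y-linked gene *Eif2s3y* low on 3 colon arrays and 1 liver array, and both were high on 3 colon arrays and 1 liver array, although the study describes males. The first 3 were LL mice 1 and 3 and HL mouse 5, and the other 3 were HH mice 1 and 5 and LL mouse 5. Between 66.8% and 73.7% of the spots of a colon array, and between 55.1% and 66.0% of those of a liver array, were well above background in the mouse channel. Arrays have no read depth, and what limits the precision here was not tested.

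The colon was first compared with the liver, a tissue without colonocytes, which asks whether the 10 genes mark the colon in these mice. Of the 10 genes, 6 were higher in colon at more than 1.5-fold and a Benjamini-Hochberg adjusted p under 0.05, beside 14.8% of all probes, and 1 was lower, beside 13.7% of all probes. The 6 were *Guca2a*, *Krt20*, *Car1*, *Vil1*, *Slc26a3* and *Car4*, and in none of them did any liver mouse reach the lowest colon mouse. In *Slc26a3* the gap was narrow, -1.38 in the lowest colon mouse against -1.40 in the highest liver mouse. The share of all probes without overlap between the tissues was not counted, so this separation is a description of the 6 genes only. The 1 that was lower was *Aqp8*. *Scnn1a*, *Slc16a1* and *Slc9a3* did not pass both limits.

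Guanylin differed most between the tissues. *Guca2a* ranged from 1.76 to 2.34 (median 2.08) over 24 colon mice and from -4.83 to -3.96 (median -4.50) over 23 liver mice, a difference of 6.60 ± 0.07 (SE), or 96.9-fold (adjusted p = 2.33e-46). *Krt20* ranged from -0.97 to 0.32 in colon and from -6.70 to -5.29 in liver, 46.2-fold apart (5.53 ± 0.12 on the log2 scale, adjusted p = 4.86e-35). *Car1* ranged from 1.42 to 1.91 in colon and from -4.11 to -3.30 in liver, a 39.2-fold difference (5.29 ± 0.06, adjusted p = 8.02e-46). In each of these genes the gap between the tissues was several times the whole range within either one.

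*Vil1* lay between -0.68 and 0.23 in colon and between -4.99 and -4.17 in liver, a 17.1-fold difference, and its second probe gave 20.6-fold. The chloride/bicarbonate exchanger *Slc26a3* was 8.23-fold higher in colon (3.04 ± 0.22, adjusted p = 2.63e-16), with colon values from -1.38 to 0.28 and liver values from -4.54 to -1.40. It was well above background on 16 of the 24 liver arrays. *Car4* was 7.25-fold higher in colon (2.86 ± 0.15, adjusted p = 5.54e-21), from -0.37 to 0.80 against -3.18 to -1.15. The liver mice nearest to the colon in *Slc26a3* and *Car4* were HH mouse 2 and HL mice 5 and 6, whose arrays also had narrowed ratios, with SDs of 0.57, 0.61 and 0.55.

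*Aqp8* ran the other way, 12.0-fold higher in liver (-3.58 ± 0.20 for colon minus liver, adjusted p = 1.53e-20). *Aqp8* is also a water channel of hepatocytes. Liver values ranged from -0.92 to 0.97 (median 0.19) and colon values from -3.96 to -0.54 (median -3.57), so that 1 colon mouse, HH mouse 4, lay within the liver range. *Scnn1a* was higher in colon by 0.58 ± 0.10, on the edge of 1.5-fold (adjusted p = 1.13e-06). Its second probe, well above background on 2 of the 24 liver arrays, gave 0.18. *Slc16a1* differed by 0.24 ± 0.11 (adjusted p = 0.0586, interval 0.01 to 0.47). *Slc9a3* was well above background on 22 of the 24 colon arrays and on 0 of the 24 liver arrays, so its liver level is only a bound and no fold is given. The measured difference was 0.14 as reported, 1.30 with the scanner's processed signals and -0.16 under median centring of the arrays. *Scnn1a* passed both limits without background correction (0.59), with the repaired background (0.59) and under median centring (1.19), and *Slc16a1* did so under median centring (0.76).

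**Figure D1:**
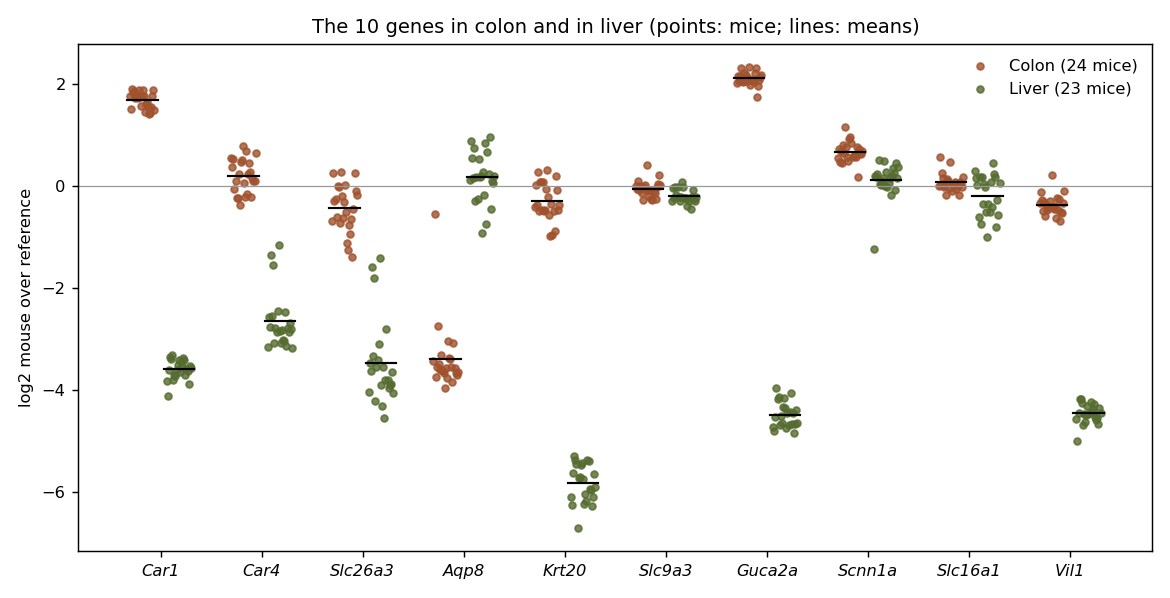
Log2 ratio of mouse over reference RNA (vertical axis) of the 10 genes in 24 colon mice (brown) and 23 liver mice (green), with a line at each mean. *Car1*, *Car4*, *Slc26a3*, *Krt20*, *Guca2a* and *Vil1* separated the tissues without overlap (share of all probes that do so not counted). *Aqp8* was the gene with higher liver values, with HH mouse 4 as the colon point at -0.54.

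Within the colon, the values of each group are given by role, starting with the chloride, bicarbonate and water genes. In *Slc26a3* the lowest, median and highest mice were -0.69, -0.26 and 0.26 in HH, -0.72, -0.24 and 0.28 in HL, -1.24, -0.84 and 0.03 in LH, and -1.38, -0.31 and 0.27 in LL. The middle of the LH group thus lay under that of the other groups, while the highest LH mouse was inside the HH range. *Car1* was the steadier carbonic anhydrase, at 1.51, 1.81 and 1.91 in HH, 1.58, 1.76 and 1.88 in HL, 1.46, 1.64 and 1.88 in LH, and 1.42, 1.53 and 1.88 in LL. *Car4* spread more widely within groups than between them, at -0.22, 0.24 and 0.56 in HH, -0.37, 0.36 and 0.80 in HL, -0.21, 0.16 and 0.70 in LH, and -0.20, 0.14 and 0.65 in LL. In both carbonic anhydrases the groups overlapped over most of their range. *Aqp8* was at -3.74, -3.45 and -0.54 in HH, -3.96, -3.62 and -3.30 in HL, -3.76, -3.46 and -3.04 in LH, and -3.83, -3.66 and -3.08 in LL. Without its highest mouse, the HH group would end at -2.74.

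Of the sodium genes, *Slc9a3* was at -0.07, -0.01 and 0.11 in HH, -0.27, -0.05 and 0.42 in HL, -0.27, -0.14 and -0.07 in LH, and -0.24, 0.00 and 0.23 in LL. All LH mice were at or under the lowest HH mouse to 2 decimals, but the probe was dim, with a mean log2 mouse signal of 6.89. *Scnn1a* was at 0.45, 0.62 and 0.82 in HH, 0.50, 0.72 and 1.17 in HL, 0.58, 0.61 and 0.96 in LH, and 0.19, 0.67 and 0.78 in LL. *Guca2a*, the hormone gene, was nearly level across the groups, with means of 2.14 ± 0.11 (SD, n = 6) in HH, 2.12 ± 0.07 in HL, 2.13 ± 0.13 in LH and 2.08 ± 0.20 in LL. Only LL mouse 4, at 1.76, fell outside the range of 1.97 to 2.34 that held the other 23 mice.

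The butyrate transporter *Slc16a1* was at -0.02, 0.10 and 0.58 in HH, -0.18, 0.07 and 0.47 in HL, -0.09, 0.05 and 0.08 in LH, and -0.17, 0.03 and 0.19 in LL. Of the structural genes, *Krt20* was at -0.48, -0.17 and 0.28 in HH, -0.48, -0.26 and 0.08 in HL, -0.97, -0.46 and 0.32 in LH, and -0.87, -0.42 and 0.21 in LL. The LH group held both the lowest and the highest *Krt20* value of all 24 mice. *Vil1* was at -0.58, -0.32 and -0.12 in HH, -0.47, -0.37 and 0.23 in HL, -0.62, -0.43 and -0.23 in LH, and -0.68, -0.41 and -0.09 in LL. The group medians of villin were close together beside the range of any group.

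**Figure D2:**
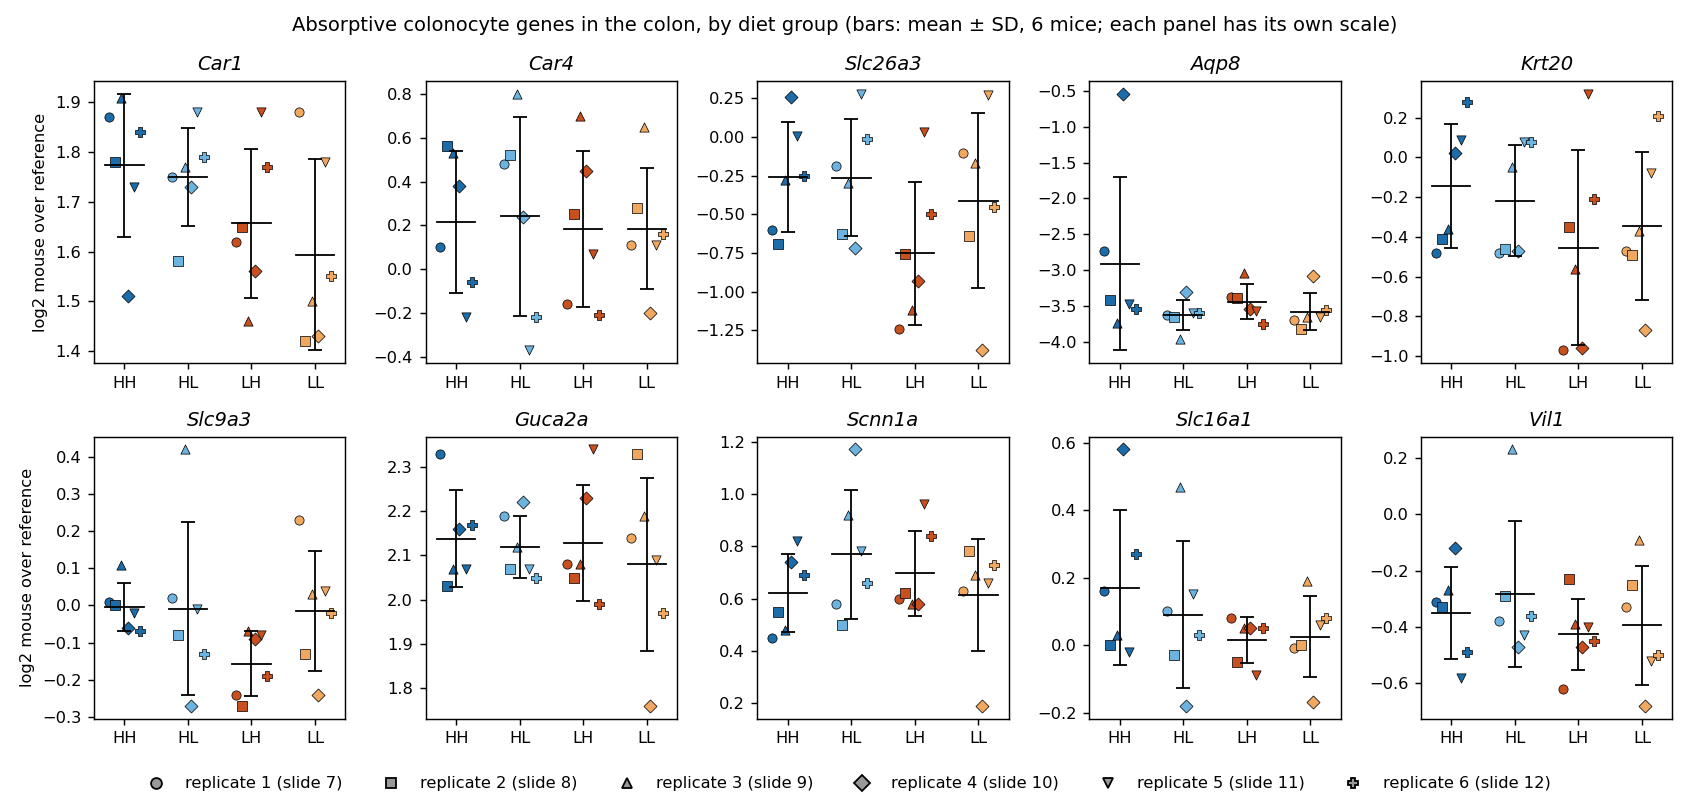
Log2 ratio of mouse over reference RNA (vertical axis, a scale for each panel) of the 10 genes in the colon by diet group, with a point for each mouse, shaped by replicate and slide, and bars for the mean ± SD of 6 mice. The groups overlapped in every gene, and HH mouse 4 stood apart in *Aqp8* at -0.54.

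Each group was then set against HH with the slide as a block, which asks whether a diet low in selenium and folate changed the genes when fed to the dam (LH), to the offspring (HL) or to both (LL). The main effects of dam diet and offspring diet and their interaction were also tested. At more than 1.5-fold and an adjusted p under 0.05, 0 of the 10 genes were called in any of the 6 contrasts, beside 0% of all 41173 probes tested in each. The groups of no gene were free of overlap in HH *vs.* LH, HH *vs.* HL or HH *vs.* LL. At an unadjusted p under 0.05, 3 genes passed in HH *vs.* LH, beside 13% of all probes, 1 in HH *vs.* HL, beside 8.12%, and 2 in HH *vs.* LL, beside 8.60%. The dam diet gave 3, beside 7.35%, and the offspring diet and the interaction gave 0, beside 6.49% and 6.44%. Every one of these differences was toward a lower value where a diet L was fed.

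*Slc26a3* and *Krt20* had the lowest p-values of the 10 genes in HH *vs.* LH. *Slc26a3* was lower in LH by a log2 difference of -0.50 ± 0.19 (SE, 95% interval -0.90 to -0.09, adjusted p = 0.301). On the slides taken singly, LH was under HH on 5 of 6, by between -1.19 and 0.02. *Krt20* differed by -0.31 ± 0.12 (interval -0.57 to -0.06, adjusted p = 0.302) and was lower on 4 of 6 slides. *Slc9a3* differed by -0.15 ± 0.07 (adjusted p = 0.383) and was lower on 6 of 6 slides, by between -0.27 and -0.03. Its unadjusted p was 0.05 or more under 24 of 43 alternatives, against 5 of 43 for *Slc26a3* and 12 of 43 for *Krt20*.

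The first of these values leaned on single mice. Slide 10, with HH mouse 4, gave the widest gap in *Slc26a3* (-1.19), *Krt20* (-0.98) and *Aqp8* (-3.00). Without HH mouse 4 the differences in HH *vs.* LH were -0.29 in *Slc26a3* and -0.20 in *Krt20*, and neither had an unadjusted p under 0.05. The same limit was missed by *Slc26a3* without LH mouse 1 (-0.39) or LH mouse 3 (-0.41), and by *Krt20* without LH mouse 1 (-0.26) or LH mouse 4 (-0.25). With HH mouse 4 and LL mouse 4 both left out, an alternative chosen after the data were seen, they were -0.33 and -0.21, and with the repaired background as well they were -0.28 and -0.15. In both settings *Slc26a3* had an unadjusted p under 0.05 and *Krt20* did not.

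For the main effect of the dam diet, *Car1* differed by -0.13 ± 0.05, *Krt20* by -0.22 ± 0.09 and *Slc26a3* by -0.32 ± 0.14, each with an adjusted p of 0.675. *Car1* also differed by -0.18 ± 0.07 in HH *vs.* LL (adjusted p = 0.565). With the repaired background it was -0.12 in HH *vs.* LL and -0.10 for the dam diet, and neither had an unadjusted p under 0.05. The repaired background left 8.08% of all probes under an unadjusted p of 0.05 in HH *vs.* LH and 5.43% for the dam diet, with 3 and 2 of the 10 genes among them.

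*Aqp8* was lower than in HH by -0.71 ± 0.30 in HL (adjusted p = 0.596) and by -0.67 ± 0.30 in LL (adjusted p = 0.565). The size of both values rested on HH mouse 4, and without it they were -0.29 and -0.24, neither with an unadjusted p under 0.05. On the slides taken singly, HL was under HH on 6 of 6, by between -2.76 and -0.06. LL was under HH on 5 of 6, with differences from -2.54 to 0.09. Without the 3 arrays on which *Xist* was high and *Eif2s3y* low, *Aqp8* differed by -0.77 in HL and by -0.66 in LL, the latter no longer under that limit. With the 3 arrays on which both were high left out as well, *Aqp8* at -0.83 and -0.78 and *Slc9a3* at -0.17 in LH all missed it, while *Slc26a3* in LH, at -0.65, and *Krt20*, at -0.42, did not. *Aqp8* was -0.54 in HH mouse 4 and between -3.96 and -2.74 in the other 23 mice. In the same mouse *Slc16a1* was the highest of all at 0.58 by the probe used. By its other 2 probes the highest mouse was not an HH mouse. A_51_P397363, measured in 5 HH mice, reached 0.41 in HH and 0.59 in LH. A_52_P245119 reached 0.47 in HH and 1.27 in HL. In HH mouse 4 *Aqp4*, the water channel of basolateral membranes, was at -0.66 against -2.65 to -1.11 elsewhere. *Hoxa13*, a homeobox gene of the hindgut, was at 0.37 there against -0.48 to 0.08 in the other mice. *Hoxb13* and *Hoxd13*, also expressed in the hindgut, lay within the range of the other mice. The other 8 of the 10 genes did so as well. Of the wider lists described further on, this mouse was above every other in 3 of 10 smooth muscle genes and in 1 gene each of the goblet, enteroendocrine and transcription factor lists. It was under every other in 2 of 27 ion and water transport genes, 3 of 8 enteroendocrine genes, 1 of 9 immune genes and 2 of 3 red cell genes. The 3 enteroendocrine genes lay close under the next mouse. They were *Chgb* (2.52 against 2.56), *Sst* (1.4 against 1.45) and *Tph1* (1.64 against 1.7). The array of HH mouse 4 was among those with narrowed ratios (SD 0.69). The part of that narrowing in *Aqp4*, in *Hoxa13* and in these list counts was not tested. Which stretch of the colon was taken was not tested.

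As a list, the 10 genes had a median log2 difference of -0.13 in HH *vs.* LH, with 9 of 10 under 0, while the median of all probes was -0.01, with 52.6% under 0. In HH *vs.* LL the median was -0.10, with 10 of 10 under 0 (53.6% of all probes), and for the dam diet it was -0.10, also with 10 of 10 under 0 (52.3% of all probes). HH mouse 4 and LL mouse 4 both weighed on these values. Their mean log2 ratios over the 10 genes were 0.49 and -0.32, against -0.22 to 0.24 in the other mice. With both left out, an alternative chosen after the data were seen, the median was -0.07 in HH *vs.* LH (9 of 10 under 0), 0.02 in HH *vs.* LL (4 of 10) and -0.05 for the dam diet (7 of 10). Leaving out HH mouse 4 alone gave -0.01 in HH *vs.* LL (5 of 10) and -0.08 in HH *vs.* LH (6 of 10), and leaving out LL mouse 4 alone gave 0.02 in HH *vs.* LL (4 of 10). In HH *vs.* HL it was -0.01 with all mice and for the offspring diet 0.02. These contrasts share the HH mice, and the genes vary together between mice, so the 10 signs are not independent. *Guca2a*, at -0.01 (interval -0.18 to 0.16), *Car4*, at -0.03 (-0.29 to 0.23), and *Vil1*, at -0.08 (-0.27 to 0.11), had intervals in HH *vs.* LH that stay inside 1.5-fold on either side. Those of *Car1* (-0.27 to 0.04), *Slc9a3* (-0.31 to 0) and *Slc16a1* (-0.36 to 0.05) did so too, and that of *Krt20* (-0.57 to -0.06) narrowly. *Scnn1a*, at 0.07 (-0.16 to 0.30), also inside, was the 1 gene above 0. By its other 2 probes *Slc16a1* was at -0.01 (A_51_P397363) and 0.07 (A_52_P245119) in HH *vs.* LH, so its sign depended on the probe. The intervals of *Slc26a3* (-0.90 to -0.09) and *Aqp8* (-1.16 to 0.09) passed 1.5-fold.

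**Figure D3:**
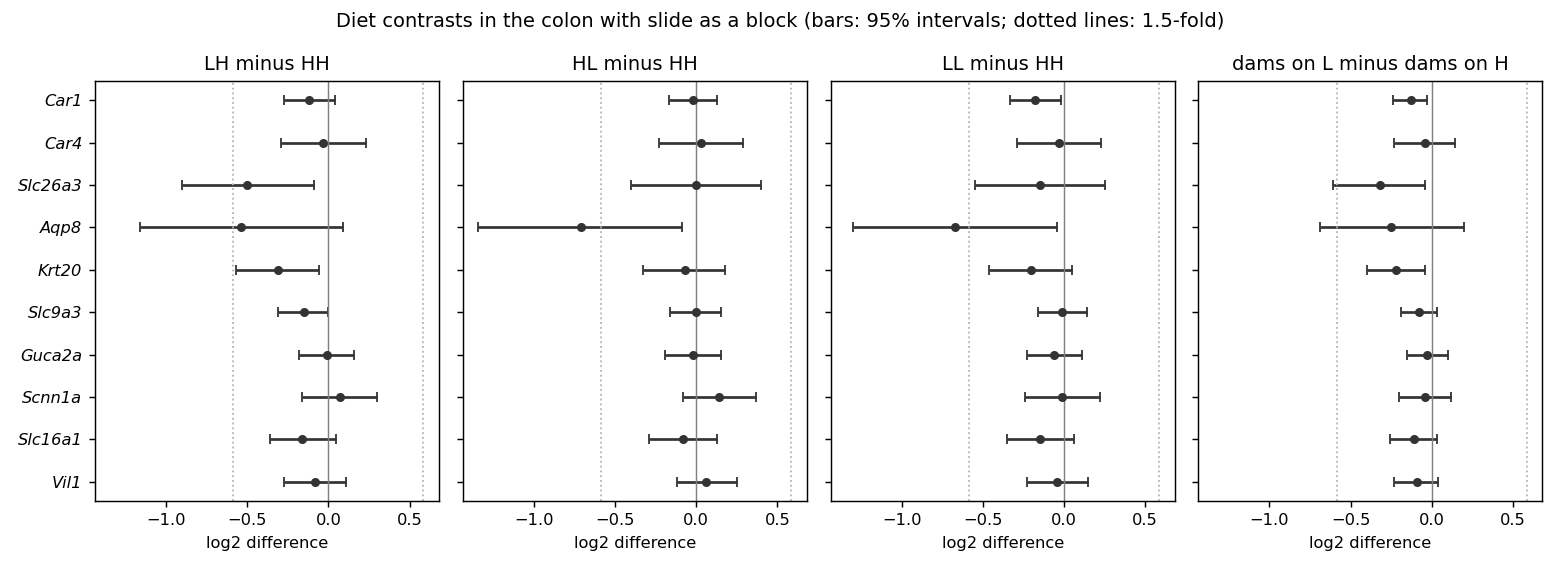
Log2 differences (horizontal axis) of the 10 colonocyte genes in the colon for 3 group contrasts and the dam diet, with slide as a block. Points are estimates, bars are 95% intervals and dotted lines mark 1.5-fold. The widest intervals are those of *Aqp8* and *Slc26a3*, and no estimate past 1.5-fold had an adjusted p under 0.05.

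In each of the 10 genes the slide on which a mouse was hybridised took a larger share of the variance than its diet group. The median shares over all probes stood the same way. There were more slides than diet groups, so the shares are not like measures. A test of the slide terms was added after the data were seen. *Krt20* and *Car4* differed between slides at an adjusted p under 0.05, so that 2 of the 10 genes passed, beside 33.6% of all probes. In *Krt20* the slide took 63.4% of the variance and the diet group 11.1% (adjusted p = 0.00123). Its 8 mice on slides 11 and 12 lay between -0.21 and 0.32 (median 0.08), and its 16 mice on slides 7 to 10 between -0.97 and 0.02 (median -0.47). *Car4* went the opposite way, from -0.37 to 0.16 on slides 11 and 12 and from -0.20 to 0.80 on slides 7 to 10, with 67.6% of the variance by slide (adjusted p = 0.00259). *Slc26a3* was higher on slides 11 and 12 by 0.51, with 39.1% by slide (adjusted p = 0.0561).

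*Guca2a* moved least with the slide, at 11.7% of its variance (adjusted p = 0.870). Over the 10 genes the median share was 37.3% by slide and 12.3% by diet, against 36.5% and 9.09% over 40579 probes, and the median SD left after both was 0.193 against 0.126. With the scanner's processed signals 0 of the 10 genes passed the slide test, and in the mouse channel alone *Car1* was the 1 that did (adjusted p = 0.0275). Each slide held every group, so the slide does not stand in for a diet.

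The 3 probes of *Slc16a1* did not give 1 answer on the slides. The brightest probe (A_51_P397367), the one used above, took 14.9% of its variance from the slide (adjusted p = 0.726). A_51_P397363 took 91.3% (adjusted p = 5.24e-06), with 8 mice from -0.67 to -0.20 on slides 11 and 12 and 15 measured mice from -0.03 to 0.59 on slides 7 to 10, and A_52_P245119 took 70.7% (adjusted p = 0.000647). The last 2 correlated with each other at r = 0.77 over the mice that had both values, and with the brightest probe at 0.27 and 0.48. After group and slide means were removed these became 0.32, 0.46 and 0.51. The 2 probes of *Vil1* followed each other more closely, at 0.77 as measured and 0.91 after removal, and those of *Scnn1a* less so, at 0.39 and 0.22.

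**Figure D4:**
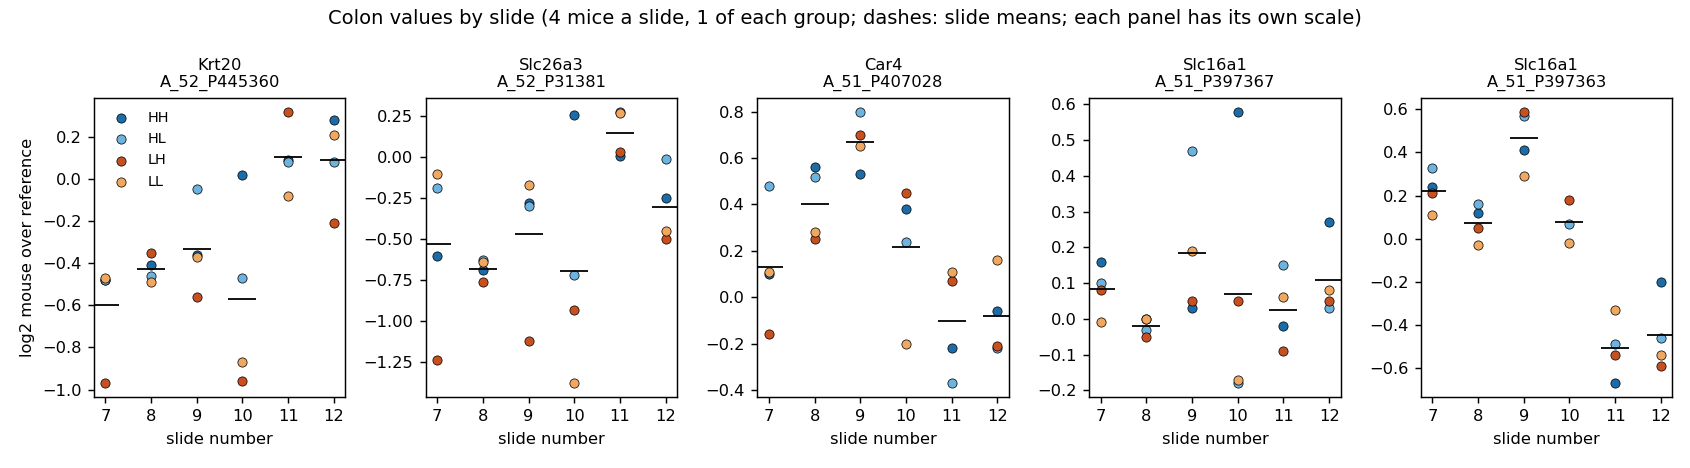
Log2 ratio of mouse over reference RNA (vertical axis, a scale for each panel) by slide number (horizontal axis) for *Krt20*, *Slc26a3*, *Car4* and 2 probes of *Slc16a1* in the colon, with a point for each mouse and a dash for each slide mean. *Krt20* was higher and *Car4* lower on slides 11 and 12, and of the *Slc16a1* probes A_51_P397363 fell with the slide while A_51_P397367 did not.

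The genes were next compared with each other across the 24 colon mice, over 45 pairs with permutation tests and Benjamini-Hochberg adjustment over the pairs. Of these, 37 had a positive Pearson's r, and 4 had an adjusted p under 0.05, all positive. The mice were permuted without regard to slide, so these p-values also count shifts that mice of 1 slide share. *Slc26a3* and *Krt20* were the closest pair, at r = 0.77 (permutation p = 3e-05, adjusted p = 0.00135) and Spearman's rho = 0.72 (permutation p = 6e-05, adjusted p = 0.0027). Without the 2 mice farthest from the median in *Slc26a3*, r was 0.67. *Car4* and *Vil1* had r = 0.67 (permutation p = 0.00016, adjusted p = 0.0036) and rho = 0.60 (permutation p = 0.00211, adjusted p = 0.0418), and r = 0.63 without the 2 farthest mice.

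*Vil1* also had r = 0.60 with *Slc9a3* (permutation p = 0.00367, adjusted p = 0.0447) and with *Slc16a1* (permutation p = 0.00397, adjusted p = 0.0447). Neither held by rank, with rho = 0.33 (permutation p = 0.117, adjusted p = 0.405) and rho = 0.21 (permutation p = 0.322, adjusted p = 0.557). Without the 2 farthest mice they fell to 0.31 and 0.22, so both rested on those mice. *Krt20* and *Scnn1a* passed by rank only, at rho = 0.60 (permutation p = 0.00279, adjusted p = 0.0418) against r = 0.51 (permutation p = 0.0107, adjusted p = 0.0862), with r = 0.46 without the 2 farthest mice.

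Since a slide or a group can shift a gene, the values were also compared after both means were removed, which leaves the differences between mice of 1 slide. There 41 of 45 pairs were positive and the median r was 0.40 in place of 0.22. *Slc26a3* and *Krt20* kept 0.64, while *Car4* and *Vil1* had 0.33. The closest pairs became *Slc26a3* with *Vil1* at 0.76 and *Krt20* with *Vil1* at 0.75, and the promoters of these 3 genes are printed above. *Slc16a1* with *Vil1* followed at 0.73. As measured, *Vil1* had r = 0.28 with *Slc26a3* and 0.17 with *Krt20*, and neither pair passed. The values after removal carry no test. Without LL mouse 4 the median r was 0.24. It was the lowest of all mice in *Slc26a3* (-1.38), *Guca2a* (1.76), *Scnn1a* (0.19) and *Vil1* (-0.68).

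**Figure D5:**
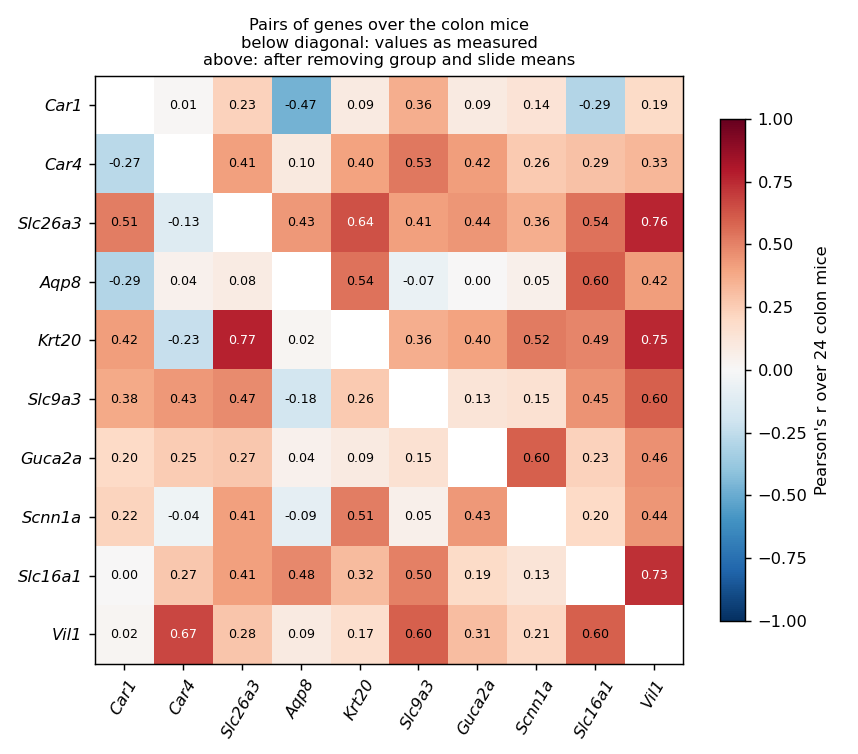
Pearson's r between each pair of the 10 genes over 24 colon mice, as measured (below the diagonal) and after group and slide means were removed (above it), on a colour scale from -1 to 1. *Slc26a3* and *Krt20* were the closest pair as measured (0.77), and *Vil1* with *Slc26a3* (0.76) and *Krt20* (0.75) after removal.

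LL mouse 4 differed in more than these genes. Beside its lowest values in 4 of the 10 genes, it was under every other mouse in 14 of 28 measured brush border and epithelial keratin genes, among them *Krt8*, *Krt18*, *Krt19*, *Epcam* and *Cdh1*, in 8 of 27 ion and water transport genes and in 4 of 11 goblet cell genes. It was above every other mouse in 6 of 9 immune genes. *Ms4a1*, the B cell surface protein CD20, was at 4.22 against -2.21 to 0.15, and *Ptprc*, the leukocyte common antigen CD45, was at 3.25 against 0.00 to 0.95. *Lyz2*, made by macrophages, was at 1.52 against -0.32 to 0.59. Beyond the immune genes it was the highest in 2 of 3 red cell genes, in 2 of 8 pancreas and fat genes and in 1 gene each of the stroma and small intestine lists. It was the lowest in 3 of 10 smooth muscle genes, in 1 gene each of the butyrate, transcription factor, neuron and glia, *Hox*, and pancreas and fat lists, and in 0 of 11 crypt and proliferation genes and 0 of 8 enteroendocrine genes. The share of all probes in which this mouse was the lowest or highest was not counted, so these counts describe the listed genes only. At more than 2-fold it was above every other mouse in 356 probes and under every other in 3, of 41174. The part of other cells in its low colonocyte genes was not tested.

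The named genes outside the list that most resembled the mean of the 10 genes, each scaled to an SD of 1, were ranked by Pearson's r over the 24 colon mice after group and slide means were removed, among 14846 genes well above background. They were *Endod1* and *Eif6*, each at 0.88, *Itga3* and *Chrdl2* at 0.87, *Hpdl* and *Perp* at 0.86, *Arhgef16* at 0.85 and *Itga5* at 0.84. *Eif6* is a translation initiation factor, *Itga3* and *Itga5* are integrin alpha chains and *Perp* is a desmosome protein of epithelia. Of the 8, *Eif6* stayed at rank 2 without LL mouse 4 (r = 0.86), *Itga3* went to rank 16 and the rest to ranks 33 to 97. The points share arrays and slides, and no test goes with the ranking.

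Wider lists of colonocyte genes were read in the same fit. In HH *vs.* LH, 0 genes of any list were called, and the counts that follow are at an unadjusted p under 0.05, where 13% of all probes passed, or 8.08% with the repaired background. Of 27 measured ion and water transport genes, 3 were higher and 4 lower in LH, and 3 and 3 with the repaired background. The lowest p-values belonged to the carbonic anhydrase *Car13* (-0.27 ± 0.08, adjusted p = 0.232), to *Aqp4* (-0.67 ± 0.20, adjusted p = 0.240) and, for the dam diet, to the carbonic anhydrase *Car12* (-0.27 ± 0.08, adjusted p = 0.659). *Aqp4* differed about as much in HH *vs.* HL (-0.64 ± 0.20, adjusted p = 0.591) and in HH *vs.* LL (-0.61 ± 0.20, adjusted p = 0.565). HH mice 1 and 4 were on the colon arrays with narrowed ratios, and their part in these values was not tested. Of 28 brush border and keratin genes, 1 was higher and 3 lower, but 2 were higher and 0 lower with the repaired background. The keratin *Krt23* was higher by 0.35 ± 0.12 (adjusted p = 0.264), and for the dam diet *Cdh17*, the liver-intestine cadherin, differed by -0.24 ± 0.08 (adjusted p = 0.659) and *Fabp2*, the intestinal fatty acid binding protein, by -0.28 ± 0.10 (adjusted p = 0.667).

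Of 15 genes for butyrate use and sodium-retaining hormone response, 0 passed in either direction in HH *vs.* LH, and 1 was higher with the repaired background. *Hcar2*, a receptor for butyrate and niacin, differed by 0.24 ± 0.08 in HH *vs.* HL (adjusted p = 0.591), and *Acads*, the short-chain acyl-CoA dehydrogenase, by -0.18 ± 0.07 in HH *vs.* LL (adjusted p = 0.565). *Nr3c1*, the glucocorticoid receptor, had -0.13 ± 0.07 for the interaction (adjusted p = 0.774). Of 13 transcription factors of the intestinal epithelium, 2 were higher and 2 lower in LH, but 1 and 0 with the repaired background. *Hes1*, a Notch target that favours the absorptive fate, was higher by 0.41 ± 0.11 (adjusted p = 0.214). *Isx*, an intestinal homeobox gene, differed by 0.17 ± 0.06 for the offspring diet (adjusted p = 0.756).

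Markers of the other cells of the colon gave these counts in HH *vs.* LH, higher then lower. Goblet cells had 0 and 1 of 11, crypt and proliferation genes 1 and 5 of 11, enteroendocrine cells 2 and 0 of 8, smooth muscle 0 and 1 of 10, enteric neurons and glia 6 and 0 of 10, stroma and vessels 0 and 0 of 8, immune cells 1 and 0 of 9 and red cells 0 and 0 of 3. Hindgut *Hox* genes had 0 and 1 of 6, small intestine genes 0 and 2 of 7, pancreas and fat genes 0 and 0 of 8 and hepatocyte genes 0 and 1 of 7. With the repaired background the crypt and proliferation genes had 0 and 5, the neuron and glia genes 5 and 0, and the enteroendocrine genes 4 and 0. Smooth muscle then had 0 and 1, and the immune, *Hox* and small intestine lists had 1 and 0 each. The goblet, stroma, red cell, pancreas and fat, and hepatocyte lists had 0 and 0. In HH mouse 1, one of the arrays with narrowed ratios, the mean of the neuron and glia list was 0.70, and 1.54 with the repaired background. The part of these cells in the differences of *Slc26a3* and *Krt20* was not tested. The hepatocyte list stayed between -4.47 and -3.35 and the small intestine list between -3.27 and -2.36 in every colon mouse.

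In the liver, where 6 of the 10 genes were far lower, the same 6 contrasts called 0 of the 10 genes and 0% of all 41171 probes. The study itself, at the same limits, reports liver genes called in each comparison with HH, most in HH *vs.* LH. Its methods name no slide block. Several alternatives described at the end also made liver calls, none of them in the 10 genes at an adjusted p. In the fit used here, 3 genes had an unadjusted p under 0.05 for the dam diet, beside 15.4% of all probes, and 0 in the other contrasts. *Slc26a3* differed by -0.78 ± 0.34 (adjusted p = 0.300), *Car4* by -0.49 ± 0.21 (adjusted p = 0.304) and *Slc9a3*, below background there, by -0.11 ± 0.05 (adjusted p = 0.286). With the repaired background these were -0.18, -0.14 and -0.09, none with an unadjusted p under 0.05. The HH and HL groups held the narrowed liver arrays named above, on which low genes read nearer to the reference. *Aqp8*, the gene that was higher in liver, was at 0.13, 0.55 and 0.89 in HH (lowest, median and highest), -0.29, 0.19 and 0.53 in HL, -0.92, 0.06 and 0.85 in LH and -0.44, 0.15 and 0.97 in LL.

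Whether a diet moved a gene differently in colon and liver was tested as the difference between the 2 tissues' contrasts. None of the 10 genes was called, beside 0.0874% of all probes for HH *vs.* LH, 0.00243% for the dam diet and 0% for the other 4 contrasts. *Car1* alone had an unadjusted p under 0.05, at -0.32 ± 0.14 for HH *vs.* LH (adjusted p = 0.308) and -0.22 ± 0.10 for the dam diet (adjusted p = 0.299). In *Slc26a3* the difference for HH *vs.* LH was 0.11 ± 0.53 (adjusted p = 0.962), so that the colon and liver values could not be told apart.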

How the data were processed

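RNA was hybridised by the authors to Agilent two-colour arrays of 45018 spots, the mouse RNA in Cy3 and the reference in Cy5, with no dye swap. The scanner files hold intensities as deposited (Feature Extraction 10.10.1.1, per the file headers). A table of log2 ratios, which the authors made with loess in limma under R 3.0.2 (submitters' processing notes), runs as reference over mouse and served as an alternative. Median intensities were background corrected (normexp, offset 50) and normalised by loess within arrays, with repeated spots averaged, in limma 3.58.1 (R 4.3.3). Probes were named through the RefSeq table for GRCm38.p6, 27050 of 41174. Colon and liver were each fitted in limma with 4 groups and the slide as a block. Colon was set against liver with the slide as a random block (correlation 0.157) and without pairing by animal. A call needed over 1.5-fold and an adjusted p under 0.05 (Benjamini-Hochberg), and the fits were tested on simulated data. The replicate number of a mouse is that of its slide within the tissue, so the slide block is the pairing by replicate. Correlations used 100000 permutations. The members and lists were chosen with earlier results of these data known. By rule, all 10 genes are named, with 3 genes by lowest p of each wider colonocyte list and the 8 genes most like their mean; 1 gene that this rule names is not reported here. *Aqp4* and the *Hox* genes in HH mouse 4, and the genes named for LL mouse 4, were chosen after their values were seen.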

Additional observations from a re-analysis of the deposited data

Results flagged for a closer look

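Of 80 groups of mice tested gene by gene for a single mouse far from the rest, 8 had one, and chance alone gives about 1 in 20. In the colon, *Aqp8* of HH mouse 4 (-0.54) lay far above its group, where the next mouse was at -2.74, and *Aqp8* of LL mouse 4 (-3.08) was the highest of its group. *Scnn1a* of LL mouse 4 (0.19) was far below its group, and *Vil1* of HL mouse 3 (0.23) far above. In the liver, *Slc26a3* of HH mouse 2 (-1.58), on an array with narrowed ratios, and *Scnn1a* of HL mouse 4 (0.50) were high. *Krt20* of HL mouse 2 (-6.70) and *Scnn1a* of the HH animal with 2 arrays (-1.23) were low.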

How the results depend on the processing

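No alternative at an adjusted p called any of the 10 genes for diet in colon or liver, and the fit with no replicate block (no slide term) also made 0 calls over all probes, while the unadjusted p of *Slc26a3* in HH *vs.* LH was then 0.0518 and that of *Krt20* 0.133. At an unadjusted p under 0.05 alone, 5 of the 10 genes passed in at least 1 of the 6 contrasts in colon and 3 in liver. Calls summed over all probes tested (41173 and 41171) and over the 6 contrasts were 20581 and 18578. A gene counts once in the first number and a probe up to 6 times in the second, so they are not a like comparison. The share of all probes in each colon contrast is given above. Calls over all colon probes, 0 as reported, were 6 with the slide as a random block, 8 with all 8 groups in 1 fit, 1 with processed signals and 1 with array weights, and 0 to 13 when 1 mouse was left out (13 without LH mouse 5). In liver they were 1 with the random block, 3 without background correction, 3 from the deposited ratios, 207 under median centring, 780 with all 8 groups, 785 with array weights, 27 with the 2 arrays of 1 animal as 2 mice, 11 with only the first of them, and 0 to 106 when 1 mouse was left out (106 without HH mouse 2, 38 without LL mouse 4, 11 without LH mouse 1). Calls for a difference between the tissues' contrasts, 37 as reported, were 1 without background correction and 0 with the repaired background. The 6 genes higher and 1 lower in colon kept that direction and call under the 5 alternatives run. *Slc9a3*, 0.14 as reported, turned to -0.16 under median centring and passed at 1.30 with processed signals, *Scnn1a* passed newly under 3 of the 5 (0.59 to 1.19) and *Slc16a1* under median centring (0.76). The slide test passed 2 genes as reported, 4 without background correction, with the repaired background, under median centring or without HH mouse 4 and LL mouse 4, 1 in the mouse channel alone and 0 with processed signals. The 4 pairs of genes became 2 without background correction or without those mice, 11 without the 2 narrowed HH arrays and 27 under median centring. The cause of these shifts was not tested. Of 556 values of single genes under an alternative, 149 kept the direction but missed the threshold, 5 passed it newly and 1 turned.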
